A study of Homo sapiens with 24 samples.

Results

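The elastic fibre genes described here are FBLN5 with 9 relatives and partners, namely the fibulins EFEMP1, EFEMP2, FBLN1, FBLN2 and FBLN7, elastin (ELN), the fibrillins FBN1 and FBN2, and lysyl oxidase (LOX). They are 10 of the 60279 genes in the count files, were looked up by Ensembl identifier, and all 10 passed the filter on low counts (5 or more on average per library). FBLN5 was chosen by its own rise in both fusion groups of these libraries, so its levels are given as a description with no test, and the question asked was whether the other 9 genes moved with it. The study introduced retroviral constructs into SW872, an established human liposarcoma cell line, and sequenced polyadenylated RNA from 24 libraries in 8 groups of 3. TAZ-CAMTA1 and YAP-TFE3 are the fusion proteins of epithelioid hemangioendothelioma, a vascular sarcoma, and each joins the amino-terminal part of a Hippo pathway coactivator to the carboxy-terminal part of a transcription factor.

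The groups were empty vector (EV), full-length TFE3, TAZ4SA, YAP5SA, TAZ-CAMTA1 and YAP-TFE3, all held confluent for 48 h before collection, and full-length CAMTA1 with its own empty vector (EVsub), collected below confluence. TAZ4SA and YAP5SA are TAZ and YAP in which serines phosphorylated by the LATS kinases are replaced by alanine. Every group, controls included, carried the same retroviral backbone and was selected with G418. The constructs carried a double Flag tag, and each line was a pool of transduced cells of 1 parental line, expressing its construct from a viral promoter. Replicates of a group came from separate transductions.

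Elastic fibres give arteries, lung and skin their recoil. They consist of a core of cross-linked elastin laid down on a scaffold of fibrillin microfibrils, and the short fibulins bring tropoelastin and the cross-linking enzymes to that scaffold. Lysyl oxidase oxidises lysines in elastin and collagen, which lets the chains cross-link. FBLN5 binds elastin and cell-surface integrins, and its loss in humans causes slack skin.

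RefSeq promoter windows (GRCh38.p14, 250 bases before to 50 after a transcription start) were found for 8 of the 10 genes, in 12 windows. EFEMP1 and ELN had no entry, FBLN5 and FBLN2 had 2 windows each, and LOX had 3. The first FBLN5 window and the second LOX window are printed below. That LOX window lies inside the annotated gene, and its first window, which spans the annotated start, is not printed. The motifs searched on both strands were GGAATG, the core bound by TEAD, the DNA-binding partner of YAP and TAZ, CACGTG, an E-box bound by the family of TFE3, and CGCG, the core bound by CAMTA proteins. Windows are shown for FBLN5, on which the question rests, for LOX, the member that rose with it in both fusion groups by the largest amount, and for FBLN7 and FBN2, which hold a TEAD core and an E-box. Capitals mark every match to any of these 3 motifs, and all sequences read 5′ to 3′ on the strand of the gene.
FBLN5, chr14:91947645-91947944, minus strand: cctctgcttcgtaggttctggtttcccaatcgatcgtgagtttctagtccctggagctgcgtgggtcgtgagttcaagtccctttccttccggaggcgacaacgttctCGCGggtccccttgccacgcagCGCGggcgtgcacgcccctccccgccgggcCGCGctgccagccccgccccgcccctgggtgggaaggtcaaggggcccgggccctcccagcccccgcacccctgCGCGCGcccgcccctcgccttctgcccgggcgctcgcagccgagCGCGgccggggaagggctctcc
LOX, chr5:122077174-122077473, minus strand: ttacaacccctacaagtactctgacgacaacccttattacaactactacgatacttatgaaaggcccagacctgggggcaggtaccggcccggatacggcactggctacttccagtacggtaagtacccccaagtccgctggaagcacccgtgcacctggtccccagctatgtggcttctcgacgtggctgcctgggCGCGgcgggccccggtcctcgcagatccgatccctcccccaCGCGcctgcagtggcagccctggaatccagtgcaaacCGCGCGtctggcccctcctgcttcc
FBLN7, chr2:112138135-112138434, plus strand: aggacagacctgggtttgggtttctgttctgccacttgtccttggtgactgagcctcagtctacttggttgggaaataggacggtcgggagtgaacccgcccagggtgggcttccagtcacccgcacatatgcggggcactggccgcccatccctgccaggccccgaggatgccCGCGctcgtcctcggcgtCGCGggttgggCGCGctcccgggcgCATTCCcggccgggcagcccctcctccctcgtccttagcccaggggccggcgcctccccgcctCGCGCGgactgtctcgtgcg
FBN2, chr5:128538196-128538495, minus strand: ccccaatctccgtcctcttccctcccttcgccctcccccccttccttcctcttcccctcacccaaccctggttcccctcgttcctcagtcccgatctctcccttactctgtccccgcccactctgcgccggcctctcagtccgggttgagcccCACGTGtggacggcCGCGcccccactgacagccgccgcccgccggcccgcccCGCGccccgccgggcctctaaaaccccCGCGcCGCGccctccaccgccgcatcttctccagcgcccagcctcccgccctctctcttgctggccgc

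GGAATG occurred in 2 of the 12 windows (FBLN7 and FBN1), against 14% of the 35116 RefSeq windows of this length. CACGTG occurred in 1 of 12 (FBN2), against 7.26% of all windows. CGCG occurred in 11 of 12 and in 49.9% of all windows. The 12 windows are not 12 separate promoters, since some genes have several. Windows 2 and 3 of LOX overlap and share their CGCG matches. The FBLN5 window printed above held 6 matches to CGCG and none to GGAATG or CACGTG. The LOX window printed above held 4 matches to CGCG, and the first LOX window (chr5:122078210-122078509) held 1. A match is only a run of letters, and the absence of a match speaks only for this window. TAZ-CAMTA1 holds only the carboxy-terminal part of CAMTA1, and whether it binds CGCG was not tested.

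Total counts were 19700277 to 35287476 per library, and the YAP-TFE3 libraries were deeper (30331854 to 35287476) than the EV libraries (19700277 to 26984451). Levels are CPM, counts scaled to a common library size with TMM factors, given as mean ± SD over 3 libraries. CAMTA1 was 144 ± 7.14 CPM in TAZ-CAMTA1 and 124 ± 8.09 in CAMTA1, against 21.4 ± 2.04 in EV. TFE3 was 336 ± 19.3 CPM in TFE3 and 283 ± 49.6 in YAP-TFE3, and it was also above every EV library, at lower levels, in TAZ-CAMTA1, TAZ4SA and YAP5SA. YAP1 was 253 ± 4.99 CPM in YAP5SA and above every EV library in TAZ-CAMTA1 too, while in YAP-TFE3 it overlapped EV. WWTR1, which encodes TAZ, went against its label: it was 134 ± 0.539 CPM in the libraries labelled TAZ4SA, 181 ± 2.15 in TAZ-CAMTA1 and 204 ± 20.3 in EV. A level below every EV library was not particular to the TAZ groups. WWTR1 was 126 ± 3.18 CPM in YAP-TFE3 and lowest in YAP5SA, at 68.8 ± 1.66. The study shows Flag-tagged TAZ4SA protein in SW872 cells by western blot. All 6 mesenchymal markers exceeded 1 CPM in every group and none of 5 adipocyte markers did. The summed level of 5 endothelial markers, all above 1 CPM in both groups, was 107 to 137 CPM in TAZ-CAMTA1 and 69.4 to 94.7 in EV, without overlap, and within it TEK was 58.4 ± 1.49 against 27.6 ± 2.19. TEK was also above every EV library in YAP-TFE3, at 36.5 ± 4.13 CPM. That sum was 61.5 to 69.0 CPM in YAP-TFE3, where FBLN5 was highest, 36.9 to 56.7 in TAZ4SA and 22.8 to 32.5 in YAP5SA. VWF ran against that sum, at 5.66 ± 1.39 CPM in TAZ4SA and 5.60 ± 0.798 in YAP5SA against 1.71 ± 0.406 in EV, and the part of these genes in the results below was not tested. In bulk RNA, fewer cells expressing a gene and less of its RNA per cell cannot be told apart.

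FBLN5 was at 0.725, 0.838 and 1.26 CPM in the 3 EV libraries, from only 21 to 26 counts each. It was at 21.4, 20.3 and 23.5 CPM in TAZ-CAMTA1 and at 65.1, 70.0 and 102 CPM in YAP-TFE3. Every fusion library thus lay far above every EV library, 23.6-fold in TAZ-CAMTA1 and 85.8-fold in YAP-TFE3 by the fitted ratio. The coactivator mutants were intermediate, with 2.05, 2.23 and 2.82 CPM in TAZ4SA and 7.23, 6.57 and 8.56 CPM in YAP5SA. Full-length TFE3 gave 1.05, 1.27 and 1.82 CPM, overlapping EV. In every confluent group the third library had the highest FBLN5 level, and in CAMTA1 and EVsub it had the lowest. Ordered by mean level, YAP-TFE3, TAZ-CAMTA1, YAP5SA, TAZ4SA and TFE3 followed each other with no overlap between neighbouring groups, whereas TFE3, CAMTA1, EV and EVsub overlapped from each to the next. The third YAP-TFE3 library was 1.51 times the mean of the other two for FBLN5, and without it the log2 fold change over EV was 6.20 instead of 6.42. Only the comparison of CAMTA1 (1.54, 1.42 and 0.884 CPM) with EVsub (0.877, 0.992 and 0.710 CPM) played no part in choosing FBLN5, and there it was not called (log2 fold change 0.64, with SE 0.29 and an edgeR quasi-likelihood adjusted p = 0.349). The 95% interval of that difference was 0.05 to 1.24. Both of these groups were collected below confluence, unlike the fusion groups, so it was not compared with the rises described there.

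**Figure D1:**
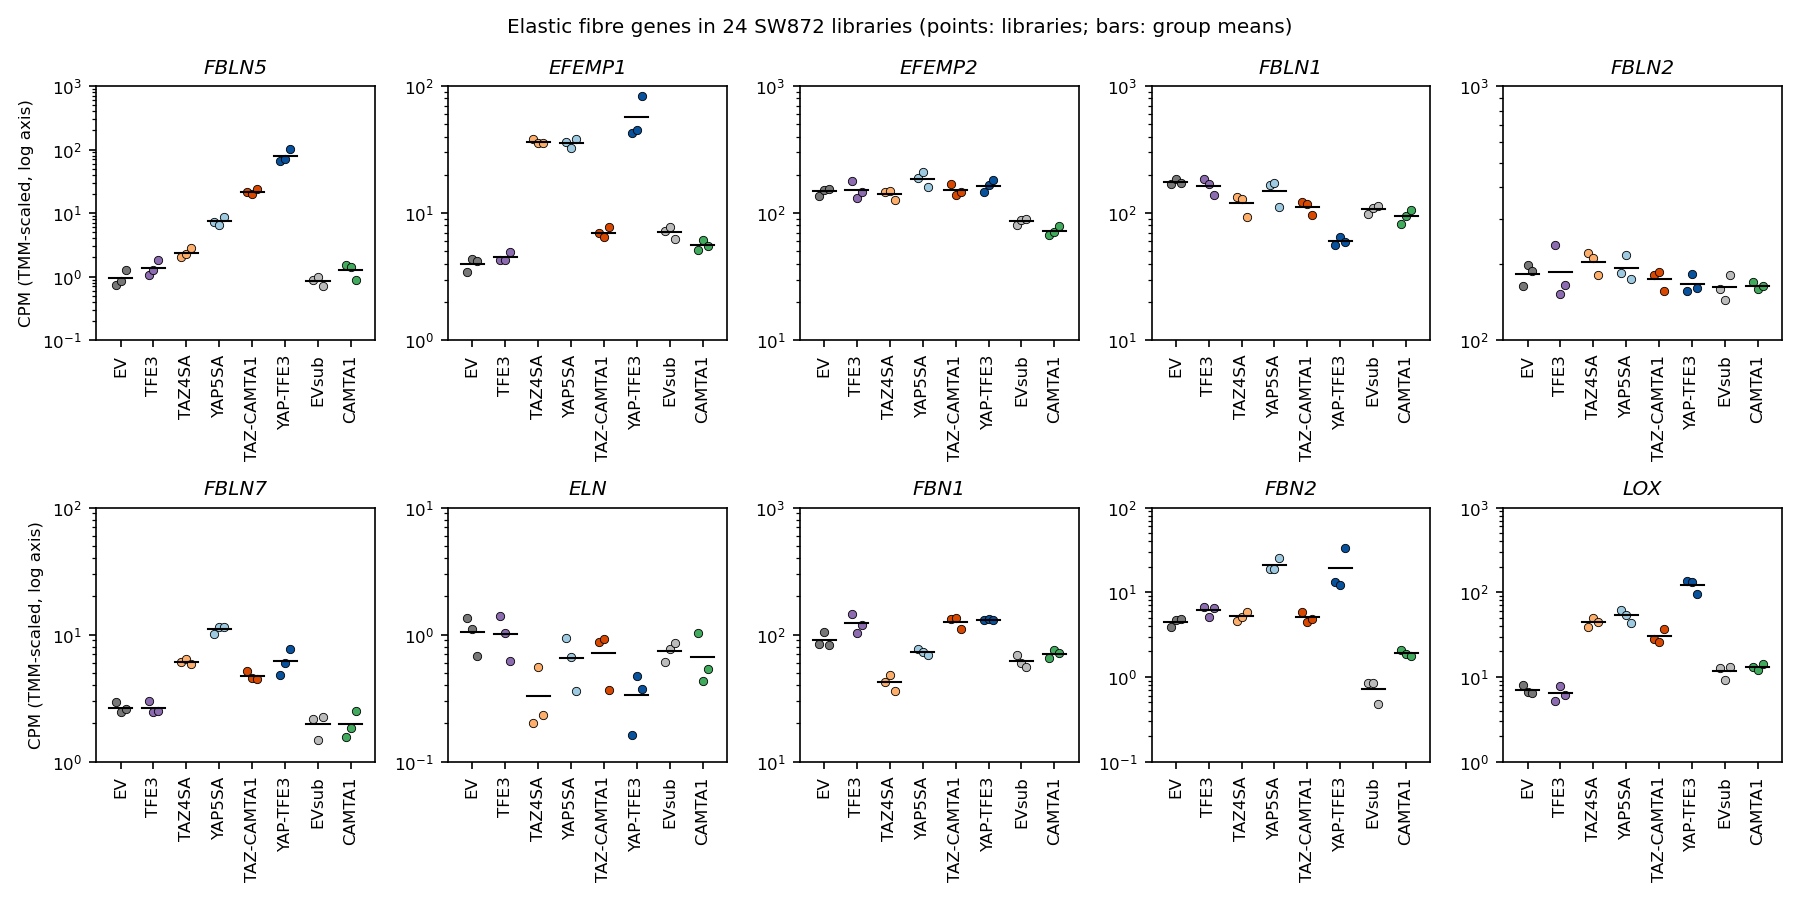
TMM-scaled CPM (log axis, each panel with its own range) of the 10 elastic fibre genes in the 8 groups, with 1 point per library and a bar at the mean of 3. FBLN5 and LOX are highest in YAP-TFE3, at means of 79.1 and 120.6 CPM, whereas FBLN2 stays between means of 161 and 203 CPM in every group.

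In TAZ-CAMTA1 cells, 4 of the other 9 genes rose against EV (LOX, FBLN7, EFEMP1 and FBN1) and 1 fell (FBLN1). Among all 19997 genes tested, 3.55% were called higher and 1.44% lower at an adjusted p under 0.05. The median log2 fold change of the 9 was 0.17, against 0.00 over all genes. Without EV replicate 1 or without TAZ-CAMTA1 replicate 3, only 3 of the 9 were called.

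In YAP-TFE3 cells, 5 of 9 rose (LOX, EFEMP1, FBN2, FBLN7 and FBN1) and 2 fell (ELN and FBLN1). Here 25.6% of all genes were called higher and 22.6% lower, so that calls were common in general. The median of the 9 was 0.53, against -0.01 over all genes.

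Several of the 9 also moved in the mutants. In the libraries labelled TAZ4SA, EFEMP1, LOX and FBLN7 rose and ELN, FBN1 and FBLN1 fell, 3 of 9 in each direction, against 25.1% of all genes higher and 24.2% lower. In YAP5SA, 5 of 9 rose (EFEMP1, LOX, FBN2, FBLN7 and EFEMP2) and only FBN1 fell, against 22.7% and 21.6% of all genes. Medians of the 9 were 0.16 and 0.33, and those of all genes -0.03 and -0.04. These comparisons and those of the fusions share the EV libraries, so their lists are not independent. Scaling by total counts instead of TMM moved the median gene by -0.20 in TAZ4SA and -0.18 in YAP5SA against EV, and under it EFEMP2 was called lower in TAZ4SA (log2 fold change -0.27), FBLN1 was called lower in YAP5SA (-0.42) and EFEMP2 was no longer called in YAP5SA (0.15).

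Neither full-length transcription factor gave a call among the 9. For TFE3 against EV, edgeR called 0 of 9, with 1 of 9 at an unadjusted p under 0.05 (FBN1, log2 fold change 0.43) and 0 of 9 by DESeq2, against 0.0350% of all genes higher and 0% lower. For CAMTA1 against EVsub, edgeR called 0 of 9, with 2 at an unadjusted p under 0.05 and 1 by DESeq2, against 1.26% and 0.570% of all genes. That 1 gene was FBN2, at 2.08, 1.85 and 1.77 CPM in CAMTA1 and 0.839, 0.856 and 0.483 CPM in EVsub. Its libraries did not overlap, with a log2 fold change of 1.44 (with SE 0.39 and an edgeR quasi-likelihood adjusted p = 0.0597), and it was called when only the 2 groups compared were fitted (adjusted p = 0.00766).

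**Figure D2:**
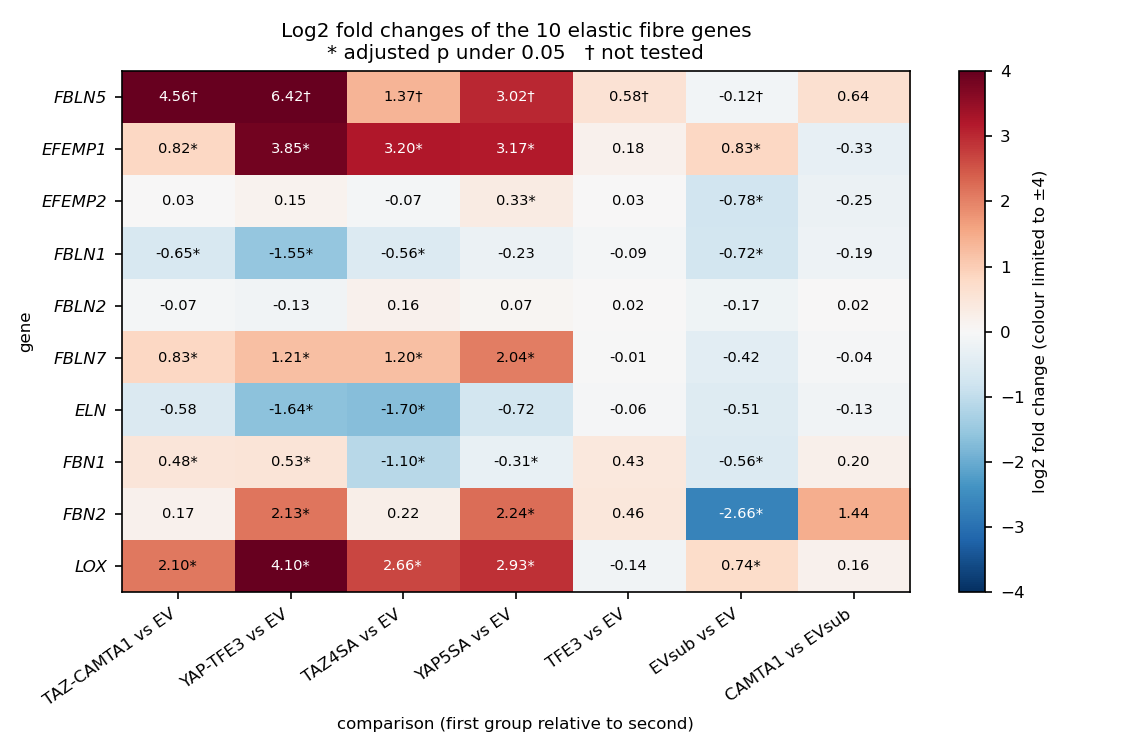
Log2 fold changes of the 10 genes (rows) in 7 comparisons with an empty vector (columns), coloured from blue (lower) to red (higher), with a star at an adjusted p under 0.05 and a dagger where no test was made. The LOX, EFEMP1 and FBLN7 rows are positive and starred in all 4 columns of fusions and mutants, and the TFE3 column carries no star.

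LOX showed the largest rise of the 9 in both fusion groups. Its EV libraries were at 7.98, 6.59 and 6.45 CPM, its TAZ-CAMTA1 libraries at 28.1, 25.7 and 36.4 CPM, and its YAP-TFE3 libraries at 135, 131 and 95.7 CPM. The 3 groups did not overlap, and LOX was 4.28-fold higher in TAZ-CAMTA1 (log2 fold change 2.10, with SE 0.18 and an edgeR adjusted p = 2.11e-08) and 17.1-fold higher in YAP-TFE3 (4.10, SE 0.19, adjusted p = 1.66e-14). LOX also rose in TAZ4SA, at 39.3, 49.5 and 44.2 CPM, and in YAP5SA, at 62.0, 54.5 and 43.9 CPM. All 6 mutant libraries were above all 3 TAZ-CAMTA1 libraries, unlike FBLN5, for which the TAZ-CAMTA1 libraries were above all mutant libraries. Exons of LOX overlap SRFBP1 on the opposite strand, as do those of EFEMP2 with MUS81, ELN with ELN-AS1 and FBN2 with SLC27A6. The library kit kept strand, but which step of the pipeline made the deposited counts, and whether it used strand, is not given in the sources used here. A share of these counts may therefore belong to the partner gene.

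EFEMP1, which encodes fibulin-3, a short fibulin like FBLN5, was at 3.42, 4.34 and 4.22 CPM in EV. It was only slightly higher in TAZ-CAMTA1, at 6.94, 6.44 and 7.72 CPM, but reached 42.8, 44.7 and 84.1 CPM in YAP-TFE3. No fusion library overlapped EV, and the log2 fold changes were 0.82 (with SE 0.20 and an edgeR adjusted p = 0.0151) and 3.85 (SE 0.20, adjusted p = 1.54e-13). The call in TAZ-CAMTA1 was lost without EV replicate 1 (log2 fold change 0.72, adjusted p = 0.0893) and without TAZ-CAMTA1 replicate 3 (0.75, adjusted p = 0.0847). In the mutants EFEMP1 lay at 35.8 to 38.2 CPM in TAZ4SA and 32.7 to 38.3 CPM in YAP5SA, overlapping each other and above every TAZ-CAMTA1 library. The third YAP-TFE3 library was 1.92 times the mean of the other two, and the log2 fold change over EV was 3.46 without it.

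EFEMP2, or fibulin-4, is the short fibulin that guides lysyl oxidase to elastin, and it was expressed strongly everywhere in confluent cells, at 137 to 155 CPM in EV. It was at 151 ± 14.97 CPM in TAZ-CAMTA1 and 165 ± 16.6 in YAP-TFE3, overlapping EV in both. Its log2 fold changes of 0.03 (95% interval -0.21 to 0.27) and 0.15 (-0.08 to 0.39) were not called, and both intervals end below 1. In YAP5SA the 3 libraries (189, 212 and 160 CPM) were above EV by a log2 fold change of 0.33 (with SE 0.11 and an edgeR adjusted p = 0.0209). That call was lost without EV replicate 1 (adjusted p = 0.0952) and without YAP5SA replicate 1 (0.0539) or 2 (0.138).

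Of the long fibulins, which lie in basement membranes and around elastic fibres, FBLN1 moved against FBLN5. It was at 170, 185 and 172 CPM in EV, at 122, 117 and 97.2 CPM in TAZ-CAMTA1 and at 56.4, 64.9 and 59.2 CPM in YAP-TFE3. All fusion libraries were below EV, with log2 fold changes of -0.65 (with SE 0.15 and an edgeR adjusted p = 0.00794) and -1.55 (SE 0.15, adjusted p = 8.29e-09). Without TAZ-CAMTA1 replicate 3 the fall in TAZ-CAMTA1 was -0.56 and missed the threshold (adjusted p = 0.0712). In TAZ4SA FBLN1 fell by 0.56 on the log2 scale (SE 0.15, adjusted p = 0.00292), and in YAP5SA its 3 libraries (166, 172 and 111 CPM) overlapped EV.

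FBLN2 was called in none of the 10 comparisons, and its log2 fold changes against EV were -0.07 in TAZ-CAMTA1, -0.13 in YAP-TFE3, 0.16 in TAZ4SA and -0.17 in EVsub. The 95% intervals for the fusions, -0.34 to 0.20 and -0.40 to 0.14, leave room for shifts of moderate size only.

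FBLN7, a fibulin also found in cartilage, bone and tooth matrix, was a low-level gene that rose in both fusion groups, in YAP5SA and in the libraries labelled TAZ4SA. Its libraries were at 2.94, 2.44 and 2.62 CPM in EV, at 5.19, 4.59 and 4.46 CPM in TAZ-CAMTA1 and at 4.78, 5.998 and 7.69 CPM in YAP-TFE3. No fusion library overlapped EV, and the log2 fold changes were 0.83 (with SE 0.18 and an edgeR adjusted p = 0.00629) and 1.21 (SE 0.18, adjusted p = 4.91e-06). The highest level of FBLN7 was in YAP5SA, at 10.1, 11.5 and 11.5 CPM, a log2 fold change over EV of 2.04 (SE 0.18, adjusted p = 1.43e-09).

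ELN, the elastin gene itself, was barely expressed and did not rise with FBLN5. Its counts were 14 to 39 per library in EV, 12 to 27 in TAZ-CAMTA1 and 5 to 15 in YAP-TFE3. Levels were 1.35, 1.11 and 0.679 CPM in EV, 0.872, 0.925 and 0.369 CPM in TAZ-CAMTA1 and 0.163, 0.471 and 0.376 CPM in YAP-TFE3. The YAP-TFE3 libraries were all below EV (log2 fold change -1.64, with SE 0.45 and an edgeR adjusted p = 0.00425), whereas TAZ-CAMTA1 overlapped EV (-0.58, 95% interval -1.42 to 0.27). That interval holds both no change and a fall of more than 1 log2 unit, so a difference in TAZ-CAMTA1 was not detectable at this depth.

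The fibrillins form the microfibril scaffold, FBN1 through life and FBN2 mainly in development. FBN1 was at 84.7, 105 and 82.4 CPM in EV, 133, 136 and 111 CPM in TAZ-CAMTA1 and 131, 132 and 131 CPM in YAP-TFE3. Both fusions were above EV with no overlap, by log2 fold changes of 0.48 (with SE 0.12 and an edgeR adjusted p = 0.0199) and 0.53 (SE 0.12, adjusted p = 0.000847). The mutants went the other way, to 42.3 ± 6.07 CPM in TAZ4SA (log2 fold change -1.10, SE 0.12, adjusted p = 1.09e-07) and 73.2 ± 4.18 CPM in YAP5SA (-0.31, SE 0.12, adjusted p = 0.0430). The call in TAZ-CAMTA1 was lost on leaving out EV replicate 1 or 3 or TAZ-CAMTA1 replicate 1 or 2 (log2 fold change 0.42 to 0.43, adjusted p from 0.0799 to 0.108). The call of FBN1 in YAP5SA was also lost on leaving out EV replicate 2 (-0.19, adjusted p = 0.256) or any of the 3 YAP5SA libraries (adjusted p from 0.0510 to 0.121), and by DESeq2 (adjusted p = 0.0519).

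FBN2 was high in YAP-TFE3 and YAP5SA and low in both TAZ groups. It was at 3.87, 4.73 and 4.85 CPM in EV and 5.91, 4.42 and 4.77 CPM in TAZ-CAMTA1, overlapping, but at 13.3, 12.3 and 33.0 CPM in YAP-TFE3. YAP5SA held 18.9, 18.8 and 25.4 CPM, and TAZ4SA 4.58, 5.16 and 5.90 CPM. The YAP-TFE3 and YAP5SA libraries were thus above all the others, with log2 fold changes over EV of 2.13 (with SE 0.27 and an edgeR adjusted p = 4.93e-07) and 2.24 (SE 0.27, adjusted p = 3.00e-07), whereas TAZ-CAMTA1 (0.17, 95% interval -0.41 to 0.75) and TAZ4SA (0.22, -0.36 to 0.81) were not called. The third YAP-TFE3 library was 2.58 times the mean of the other two for FBN2, and without it the log2 fold change over EV was 1.52 (adjusted p = 1.23e-07). In that library 9.33% of all tested genes were at least 1.5 times the mean of replicates 1 and 2. FBLN5, EFEMP1 and FBN2 were among them. For 12.36% of tested genes that mean was instead at least 1.5 times the level in replicate 3. LOX was also lower in replicate 3, at 0.719 times that mean. Replicate 3 correlated with replicates 1 and 2 at r = 0.985 and 0.987 in log2 CPM, against 0.994 between replicates 1 and 2. Those values for replicate 3 were the lowest of any pair within a group.

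Each fusion was then compared directly with the group labelled as the mutant of its coactivator. For TAZ-CAMTA1 these are the libraries labelled TAZ4SA, whose WWTR1 level lay below EV. Against TAZ4SA, 1 of 9 genes was higher in TAZ-CAMTA1 (FBN1) and 2 were lower (EFEMP1 and LOX), where 26.9% of all genes were higher and 26.8% lower. FBN1 was 2.99-fold higher (log2 fold change 1.58, with SE 0.13 and an edgeR adjusted p = 2.89e-10), and EFEMP1 was 5.19-fold lower (-2.38, SE 0.18, adjusted p = 1.82e-10). LOX was 1.47-fold lower (-0.56, SE 0.16, adjusted p = 0.00569), a call lost under scaling by total counts, which moved the median gene of this comparison by 0.20 (log2 fold change of LOX -0.36, adjusted p = 0.0812). FBLN5 differed in the opposite direction from EFEMP1 and LOX, with a fitted 9.16-fold higher level in TAZ-CAMTA1. ELN was not called (1.12, adjusted p = 0.0641) but was called without TAZ4SA replicate 2 (1.70, adjusted p = 0.0229), without TAZ-CAMTA1 replicate 3 (1.45, adjusted p = 0.0204) and, with the replicate number as a block, at an adjusted p of 0.0451. Total-count scaling and the fit with no filter on low counts called ELN too. FBLN7 (-0.37) was called when only the groups compared were fitted and with counts thinned to the smallest library. EFEMP2 (0.10) was called under total-count scaling.

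Against YAP5SA, 3 of 9 genes were higher in YAP-TFE3 (LOX, FBN1 and EFEMP1) and 2 were lower (FBLN1 and FBLN7), where 28.1% of all genes were higher and 24.3% lower. LOX was 2.26-fold higher (log2 fold change 1.17, with SE 0.16 and an edgeR adjusted p = 1.53e-06) and FBN1 1.79-fold higher (0.84, SE 0.12, adjusted p = 3.52e-06). EFEMP1 was 1.59-fold higher (0.67, SE 0.17, adjusted p = 0.00158), and without YAP-TFE3 replicate 3 this difference shrank to 0.29 (adjusted p = 0.0275). FBLN1 was 2.49-fold lower (-1.32, SE 0.15, adjusted p = 8.08e-08) and FBLN7 1.79-fold lower (-0.84, SE 0.16, adjusted p = 0.00013). FBN2 was not called (-0.11, 95% interval -0.61 to 0.39), but without YAP-TFE3 replicate 3 it was called lower (-0.72, adjusted p = 0.000733). FBLN5 was at a fitted 10.6-fold higher level in YAP-TFE3.

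Between the fusions, TAZ-CAMTA1 had 1 of 9 genes higher than YAP-TFE3 (FBLN1) and 3 lower (EFEMP1, LOX and FBN2), where 19.9% of all genes were higher and 22.8% lower. EFEMP1 was 8.13-fold lower (log2 fold change -3.02, with SE 0.18 and an edgeR adjusted p = 5.62e-12), LOX 4.01-fold lower (SE 0.17 on the log2 scale, adjusted p = 9.28e-10) and FBN2 3.89-fold lower (-1.96, SE 0.26, adjusted p = 1.62e-06). FBN1 did not separate the fusions (-0.05, 95% interval -0.30 to 0.20). FBLN7 (-0.38, adjusted p = 0.0703) was called lower in TAZ-CAMTA1 without YAP-TFE3 replicate 1 (-0.53, adjusted p = 0.0152), and ELN (1.06, adjusted p = 0.0730) was called higher without TAZ-CAMTA1 replicate 3 (1.40, adjusted p = 0.0233). Total-count scaling and the fit with no filter on low counts also called ELN higher.

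**Figure D3:**
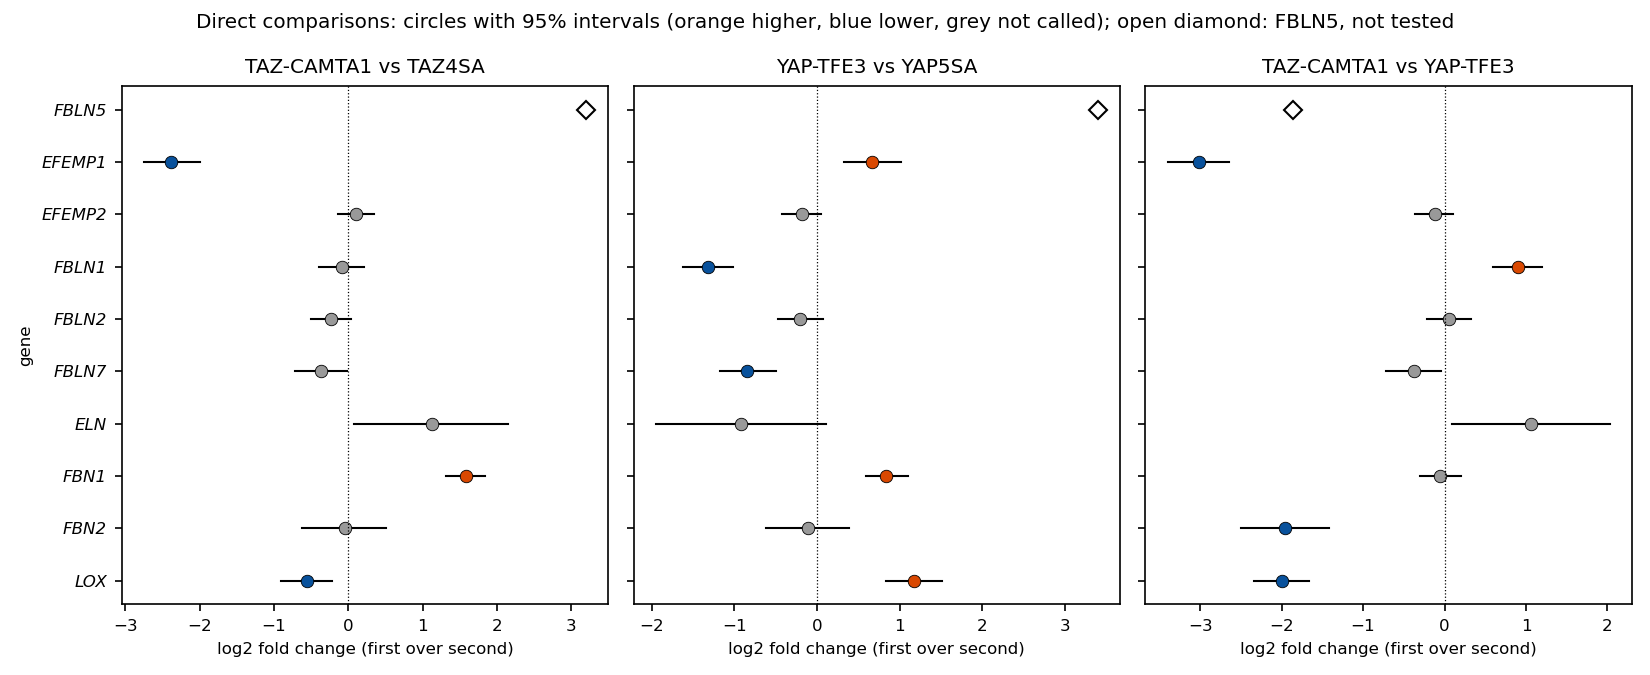
Log2 fold changes (x axis) of the 10 genes in the 3 direct comparisons, with 95% intervals from edgeR for the 9 genes tested and an open diamond without interval for FBLN5. FBLN5 is far to the right in both comparisons with a mutant, at 3.20 and 3.40, whereas EFEMP1 is at -2.38 in the first and 0.67 in the second.

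Several members also differed between the empty vector groups. EVsub and EV carry the same vector and differ in confluence, and 2 of 9 genes were higher in EVsub (EFEMP1 and LOX) and 4 lower (FBN2, EFEMP2, FBLN1 and FBN1), where 19.8% of all genes were higher and 17.1% lower. FBN2 showed the largest of these differences, at 0.726 ± 0.211 CPM in EVsub and 4.48 ± 0.535 in EV, 6.32-fold lower (edgeR adjusted p = 1.05e-05). EFEMP1 was higher by 0.83 (SE 0.20, adjusted p = 0.00262) and LOX by 0.74 (SE 0.18, adjusted p = 0.00285) on the log2 scale. For FBLN5 the EVsub libraries (0.710 to 0.992 CPM) overlapped EV. The labels give 1 vector group per culture state, so that state and any other difference between these sets of cultures cannot be told apart.

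Levels were also compared between genes after division by exon length (CPM per kb). That length joins the exons of all annotated transcripts of a gene, so it can exceed the length of the RNA expressed. The order of the genes and their shares depend on it, and other lengths were not tried. In EV cells FBLN2 (37.8 CPM per kb), EFEMP2 (27.5) and FBLN1 (24.1) were the most abundant of the 10 transcripts, and FBLN5 (0.150) and ELN (0.159) the least. In YAP-TFE3 cells FBLN5 reached 12.6 CPM per kb, EFEMP1 14.4 and LOX 21.5, all above FBLN1 at 8.26. FBLN5 made up 0.154% ± 0.0434 of the summed CPM per kb of the 10 genes in EV, 3.56% ± 0.447 in TAZ-CAMTA1 and 9.56% ± 1.82 in YAP-TFE3. Over the same groups the share of FBLN1 went from 24.8% ± 0.972 to 15.7% ± 1.03 and 6.31% ± 0.469, and that of LOX from 1.29% ± 0.246 to 5.52% ± 1.32 and 16.6% ± 3.95. The summed level was 97.5 ± 6.67 CPM per kb in EV, 98.1 ± 5.76 in TAZ-CAMTA1 and 131 ± 9.14 in YAP-TFE3.

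**Figure D4:**
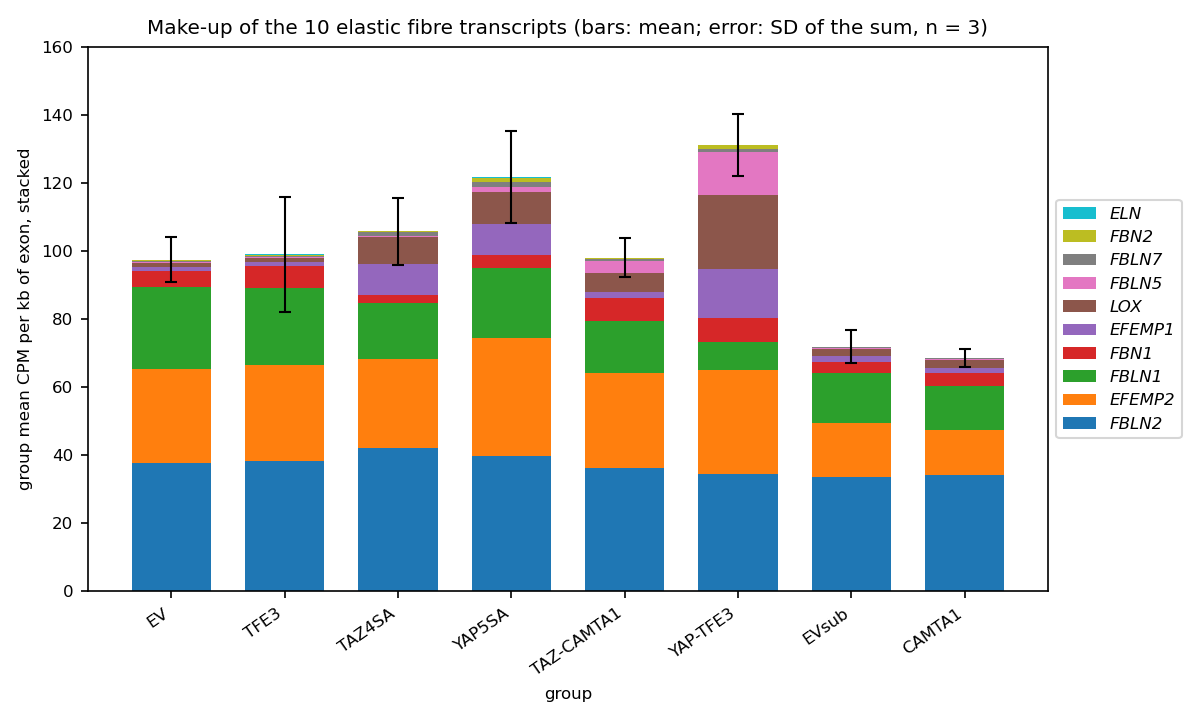
Stacked group means of CPM per kb of exon for the 10 genes in each of the 8 groups, with the SD of the sum over 3 libraries as error bar. FBLN2 and EFEMP2 form the base of every bar, and the FBLN5, LOX and EFEMP1 segments are tallest in YAP-TFE3, at 12.6, 21.5 and 14.4 CPM per kb.

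A list of 24 other genes of the elastic fibre and its microfibrils was examined in the same fits, covering microfibril proteins, hemicentins, latent TGF-beta binding proteins, LOX-like enzymes, emilins, ADAMTS family members and processing proteases. All 24 were tested. In TAZ-CAMTA1, 1 rose and 1 fell against EV, with 22 not called, where 3.55% of all genes were higher and 1.44% lower. The count of 2 depended on the fit: it was 6 when only the 2 groups were fitted, 5 with no filter, 4 by DESeq2 and 4 with a replicate block. MFAP5, a microfibril glycoprotein, rose to 1.63 ± 0.308 CPM from 2 to 5 counts per EV library (145 summed counts against 9, a depth-scaled ratio of 13.9 with a 95% counting interval of 7.11 to 30.9). THSD4, which binds fibrillin-1 and aids its assembly, fell from 95.5 ± 5.93 to 70.9 ± 3.84 CPM (log2 fold change -0.43, with SE 0.08 and an edgeR adjusted p = 0.00214).

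In YAP-TFE3, 8 of the 24 rose and 8 fell, where 25.6% of all genes were higher and 22.6% lower. Tested against an absolute log2 fold change of 1, 2 of the 24 were called. The largest rises were those of FBN3, a fibrillin of the embryo, with 46 summed counts against 7 (ratio 5.13, 95% counting interval 2.30 to 13.5), HMCN1, a hemicentin that carries fibulin-like domains (log2 fold change 1.71, with SE 0.27 and an edgeR adjusted p = 1.27e-05), and MFAP2, a microfibril glycoprotein (0.94, SE 0.24, adjusted p = 0.00228). The largest falls were those of EMILIN3 (-1.60, SE 0.38, adjusted p = 0.00132), the matrix protease ADAMTS6 (-1.31, SE 0.16, adjusted p = 3.71e-07) and ADAMTSL2 (-1.16, SE 0.22, adjusted p = 0.000103). MFAP5, called in TAZ-CAMTA1, had 6 summed counts in YAP-TFE3 against 9 in EV.

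In the libraries labelled TAZ4SA, 7 of the 24 rose and 7 fell, where 25.1% of all genes were higher and 24.2% lower. In YAP5SA 9 rose and 5 fell, where the shares of all genes were 22.7% and 21.6%. Under scaling by total counts 7 rose and 10 fell in TAZ4SA, and 9 rose and 9 fell in YAP5SA. MFAP5 (ratio of counts 16.1, 95% counting interval 8.27 to 36), HMCN2 (log2 fold change 2.06) and LOXL4, a LOX-like enzyme (1.70), led the rises in TAZ4SA. In YAP5SA the leading rises were those of MFAP5 (ratio of counts 63.2, 95% counting interval 33 to 139), LOXL4 (log2 fold change 2.02) and FBN3 (ratio of counts 3.55, 95% counting interval 1.47 to 9.85). HMCN1, EMILIN3 and EMILIN1, an elastin-binding glycoprotein, were the largest falls in both mutants (-1.79, -1.76 and -1.70 in TAZ4SA, -1.86, -1.65 and -1.94 in YAP5SA). HMCN1 therefore fell in YAP5SA and rose in YAP-TFE3, and the direct comparison gave an 11.9-fold higher level in the fusion (log2 fold change 3.57, with SE 0.33 and an edgeR adjusted p = 3.58e-09). For TFE3, edgeR called 0 of the 24, with 2 at an unadjusted p under 0.05 and 0 by DESeq2, against 0.0350% of all genes higher and 0% lower. HMCN1 was among these 2, above every EV library at 3.04 ± 0.590 CPM against 1.72 ± 0.409 (log2 fold change 0.84, SE 0.28). For CAMTA1 edgeR called ADAMTS6 alone (0.84, SE 0.14, adjusted p = 0.0013), against 1.26% of all genes higher and 0.570% lower. In EVsub 2 of the 24 were higher than in EV (MFAP5 and LOXL2) and 12 lower, EMILIN3 (-3.07), HMCN1 (-2.87) and MFAP4 (-1.74) by the most. Among all genes, 19.8% were higher and 17.1% lower in EVsub.

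Against TAZ4SA, TAZ-CAMTA1 had 7 of the 24 higher, led by EMILIN3 (2.02), EMILIN1 (1.86) and LTBP1 (1.74), and 5 lower, led by ADAMTS6 (-1.67), LOXL4 (-1.65) and HMCN2 (-1.42), a split of 9 and 4 under scaling by total counts. Among all genes, 26.9% were higher and 26.8% lower in that comparison. YAP-TFE3 had 4 higher than YAP5SA, led by HMCN1 (3.57), EMILIN1 (1.52) and LTBP1 (0.89), and 10 lower, led by MFAP5, LOXL1 (-1.90) and LOXL4 (-1.70). Among all genes, 28.1% were higher and 24.3% lower in YAP-TFE3 than in YAP5SA. MFAP5 had 6 summed counts in YAP-TFE3 and 503 in YAP5SA. Of the leading genes named for both comparisons, EMILIN1 and LTBP1 were thus higher, and LOXL4 lower, in each fusion than in the group labelled as the mutant of its coactivator. Against EV, neither EMILIN1 (0.15 in TAZ-CAMTA1, -0.42 in YAP-TFE3) nor LTBP1 (0.31 and 0.09) was called higher in a fusion. LTBP1, like EMILIN1, was below EV in TAZ4SA (-1.43) and YAP5SA (-0.80). Between the fusions, 8 of the 24 were higher in TAZ-CAMTA1, led by MFAP5, EMILIN3 (1.86) and LOXL1 (1.49), and 5 lower, led by HMCN1 (-2.70), FBN3 (-1.45) and MFAP2 (-0.77). Among all genes, 19.9% were higher and 22.8% lower in TAZ-CAMTA1 than in YAP-TFE3. The median log2 fold change of the 24 against EV was 0.17 in TAZ-CAMTA1, 0.07 in YAP-TFE3, 0.14 in TAZ4SA and 0.12 in YAP5SA.

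**Figure D5:**
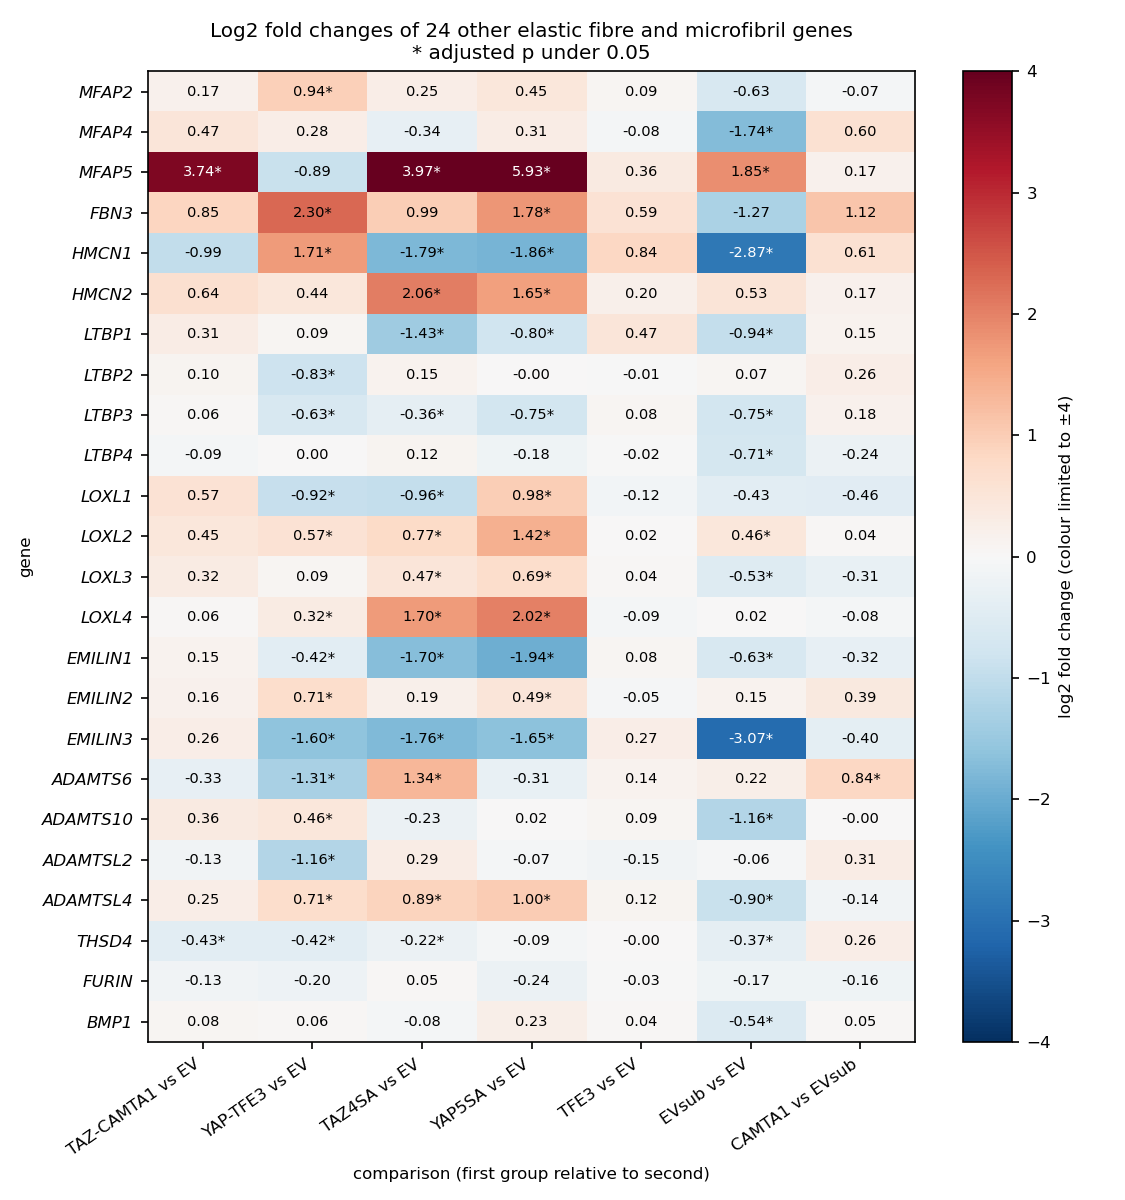
Log2 fold changes of the 24 further elastic fibre and microfibril genes (rows) in 7 comparisons with an empty vector (columns), with a star at an adjusted p under 0.05. The TAZ-CAMTA1 column carries 2 stars and the YAP-TFE3 column 16, and the colour scale stops at 4 while MFAP5 reaches 5.93 in YAP5SA.

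The pattern of FBLN5 over the 8 groups was set beside that of 1369 other genes. These averaged at least 50 counts over all libraries, and their group means spanned at least 2 log2 units. This is a description over 8 points that share their libraries. Each r includes the rise in the fusions by which FBLN5 was chosen, so it is no test. The 5 most alike were CRYAB, a small heat shock protein (Pearson r = 0.965), INMT, a methyltransferase (0.962), TRIML2 (0.962), EDNRB, an endothelin receptor (0.961), and CMKLR2, a chemerin receptor (0.952). CRYAB went from 4.43 CPM in EV to 65.3 in TAZ-CAMTA1 and 1523 in YAP-TFE3, and EDNRB from 12.5 to 40.3 and 52.8. CMKLR2 went from 0.117 to 2.87 and 25.1 CPM, so a gene nearly absent from EV could pass the filter through its high groups. When r was taken over the 24 libraries instead, 3 of these 5 stayed among the top 5. Among the members, LOX was the most like FBLN5 (r = 0.84), followed by FBN2 (0.68), FBLN7 (0.66) and EFEMP1 (0.64), and ELN (-0.57) and FBLN1 (-0.62) ran opposite to it.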

How the data were processed

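The authors sequenced stranded polyadenylated RNA as 75 base paired reads and ran the bcbio-nextgen pipeline on hg38, with Hisat2 alignment and, separately, Salmon abundances turned into gene counts with tximport. They deposited 1 file of raw counts per gene for each of the 24 libraries. Which of these steps gave the deposited counts, which are whole numbers, and its strand setting are not given in the sources used here. Genes were named with GENCODE 44 (56104 of 60279 identifiers matched), which also gave coordinates and exon lengths. Genes averaging 5 counts or more per library were tested by the edgeR quasi-likelihood test (edgeR 4.0.16, R 4.3.3) with TMM scaling, 1 mean per group over all 24 libraries and Benjamini-Hochberg adjusted p under 0.05. SE is the log2 fold change over the square root of F. DESeq2 1.42.0 served as an alternative. The script was tested on simulated data. The members and gene lists were chosen with earlier results of these data known. Named genes were all 10 members, up to 3 risen and 3 fallen genes of the 24-gene list per comparison, and the 5 genes most like FBLN5 among those with a mean of at least 50 counts. Counting intervals are exact and cover counting error only. Alternatives were scaling, filters, thinning, DESeq2, a replicate block, fits of 2 groups and leaving out each library. The identification of replicates with separate transductions comes from the study's methods.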

Additional observations from a re-analysis of the deposited data

How the results depend on the processing

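The number of called members in TAZ-CAMTA1 against EV was 5 of 9, lay between 3 and 5 when 1 library was left out, and was 1 (LOX) when changes were tested against an absolute log2 fold change of 1. Under that test the counts were also lower for YAP-TFE3 against EV (4 in place of 7), TAZ4SA against EV (2 in place of 6), EVsub against EV (1 in place of 6) and YAP-TFE3 against YAP5SA (0 in place of 5). Smaller drops were those of YAP5SA against EV (4 in place of 6), TAZ-CAMTA1 against TAZ4SA (2 in place of 3) and TAZ-CAMTA1 against YAP-TFE3 (3 in place of 4). Without a filter on low counts, FBN1 was called in TFE3 against EV (1 in place of 0) and FBN2 in CAMTA1 against EVsub (1 in place of 0). FBN2 was also called in CAMTA1 by DESeq2, with a replicate block and when only the 2 groups were fitted (1 in place of 0 each). Over all tested genes, the replicate numbers gave no steady pairing of the libraries. Deviations from the group means correlated between -0.236 and 0.216 per pair, and no comparison had every pair above 0.1. That measure does not speak for single genes, and FBLN5 was highest in replicate 3 of every confluent group. The replicate block left 5 of 9 called in TAZ-CAMTA1 and 7 of 9 in YAP-TFE3 against EV, and 4 in place of 3 for TAZ-CAMTA1 against TAZ4SA, adding ELN. Of 1264 values of single members with a test under the alternatives, 1185 kept their direction and their side of the threshold, 19 lost and 20 gained a call, and 40 changed sign with no call in either fit. Of 126 untested FBLN5 values, 124 kept their direction and moved by less than the spread between replicates, and 2 changed sign (EVsub against EV, where the groups overlap). Total-count scaling changed the split of higher and lower calls over all genes to 3355 and 7317 for TAZ4SA (5013 and 4835 with TMM), 3134 and 6842 for YAP5SA (4534 and 4325), 222 and 169 for CAMTA1 (252 and 114), 3106 and 4289 for EVsub (3956 and 3412), 7486 and 3695 for TAZ-CAMTA1 against TAZ4SA (5376 and 5354) and 5094 and 3763 for TAZ-CAMTA1 against YAP-TFE3 (3970 and 4564). For YAP-TFE3 against EV the split under total-count scaling was 4321 and 5536 (5125 and 4519 with TMM), so lower calls became the majority. It was 6562 and 4043 for YAP-TFE3 against YAP5SA (5618 and 4867) and 682 and 358 for TAZ-CAMTA1 against EV (709 and 287). Where no construction of the alternative shows it, the cause was not tested. ELN and, in control cells, FBLN5 rest on few counts per library, which limits what could be detected for them.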
